A study of Mus musculus with 6 samples.

Results

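Carriers of inorganic ions and bicarbonate, the subunits of the sodium pump and the carbonic anhydrases were compared between whole oviducts labelled Mettl3 f/f and Mettl3 d/d. The genes were chosen by symbol alone: the solute carrier families Slc4, Slc8, Slc9, Slc12, Slc13, Slc20, Slc24, Slc26 and Slc34, the Atp1a and Atp1b genes and the Car genes with a plain number. This gave 83 of the 55363 gene symbols in the tables. They were 10 genes of the Slc4 bicarbonate transporter family, 11 Slc26 anion exchangers, 14 carbonic anhydrases and 9 sodium/proton exchangers. There were also 9 cation-chloride cotransporters, 8 sodium/calcium exchangers, 10 phosphate, sulfate and carboxylate carriers, and 8 sodium pump subunits. The other 4 matched the symbol pattern without being carriers: the scaffold genes Slc9a3r1 and Slc9a3r2, Slc4a1ap and the antisense RNA Slc13a2os. Females aged 6 to 8 weeks were mated with fertile males, the day of the plug was counted as gestational day 1, and tissue was taken on gestational day 3. Each genotype has 3 libraries of whole oviduct RNA. Both genotypes were mated in the same way. In this notation f/f stands for loxP-flanked alleles and d/d for deleted ones; strain, deleted exons and Cre driver are not stated in the labels. Values of a group are given in the order of replicates 1, 2 and 3, and ± marks the SD around the mean of 3 libraries.

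Epithelia move salt, bicarbonate and water by coupling a few carriers. The sodium pump, a heterodimer of a catalytic alpha and a glycosylated beta subunit, sets the sodium and potassium gradients that secondary carriers use. Carbonic anhydrases interconvert carbon dioxide and bicarbonate, sodium bicarbonate cotransporters and chloride/bicarbonate exchangers move bicarbonate across the membrane, and sodium/proton exchangers remove acid. Oviduct fluid is rich in bicarbonate, an ion that sperm need for capacitation and that surrounds the early embryo. Mettl3 encodes the catalytic subunit of the enzyme that writes N6-methyladenosine on RNA.

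The values are FPKM, fragment counts scaled to transcript length and library depth, a scale on which levels of different genes can be set side by side. The steps of the lowest values implied 16600000 to 17800000 fragments per library. Mettl3 was at 11.8, 12.1 and 13.2 FPKM across the f/f libraries against 19.8, 20.3 and 24.5 across the d/d libraries, so the libraries labelled d/d did not hold less of the deleted gene's RNA. A value per gene cannot show a missing exon, and every direction given here rests on the labels. Oviduct markers were present: the secretory list (3 of 6 rose, 0 fell) summed to 4515 to 5972 FPKM over the f/f libraries against 2972 to 5396 over the d/d libraries, the multiciliated list to 72.1 to 234 FPKM over the f/f libraries against 25.1 to 123 over the d/d libraries and the smooth muscle list to 1516 to 3746 FPKM over the f/f libraries against 2096 to 3438 over the d/d libraries. Most of the secretory sum came from Ovgp1, which was not called, at 4264 to 5690 FPKM for f/f against 2651 to 5059 for d/d. Of 6 macrophage markers 6 rose, with sums of 320.4 to 406 FPKM over the f/f libraries against 896 to 1189 over the d/d libraries. Lists for stroma (1 rose and 1 fell), endothelium, red cells, adipocytes, skeletal muscle, nerve and ovary (0 rose and 0 fell in each of these 6) had sums above 0 in every library, while Fshr of the ovary list and Myh4 of the skeletal muscle list were listed at 0 throughout. In whole tissue, fewer cells of a type and less RNA per cell cannot be told apart. Nothing in the labels ties each replicate to its own animal; the p-values therefore reflect sample-to-sample spread, part of which may be technical.

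In the libraries labelled d/d, the sodium pump subunit Atp1b2, the cotransporter Slc4a7, Car14 and Slc24a4 fell, and Car9 and Slc9a9 rose. A total of 44 of the 83 genes had a mean of at least 1 FPKM over the 6 libraries and were tested with all other such features on log2(FPKM + 1). The test was limma with Benjamini-Hochberg adjustment over 15438 features and a threshold of 0.05. Of the 44, 8 passed (18.2%), against 11.0% of all features tested. Of the 44, 6 fell, among them Atp1b2, Slc24a4, Car14 and Slc4a7 (13.6% of the 44, against 4.97% of all features), and the 2 that rose were Car9 and Slc9a9 (4.55%, against 6.04%). The 3 d/d values lay wholly above or below the 3 f/f values in 15 of the 44 (34.1%), close to the 35.6% of all features. The median log2 change was -0.11 over the 44 and -0.01 over all features. With 1 library left out, the number that passed became 9 (f/f 1), 0 (f/f 2), 2 (f/f 3), 6 (d/d 1), 2 (d/d 2) and 2 (d/d 3). It was 8 without both replicate 1 libraries, of which 6 were among the original 8 and Slc34a2 and Car12 were gained. In each of the 8 genes the 3 d/d values lay wholly on 1 side of the 3 f/f values, so leaving libraries out could not turn the direction. The log2 changes of the 8 stayed between 0.762 and 1.2 times the value from all libraries.

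**Figure D1:**
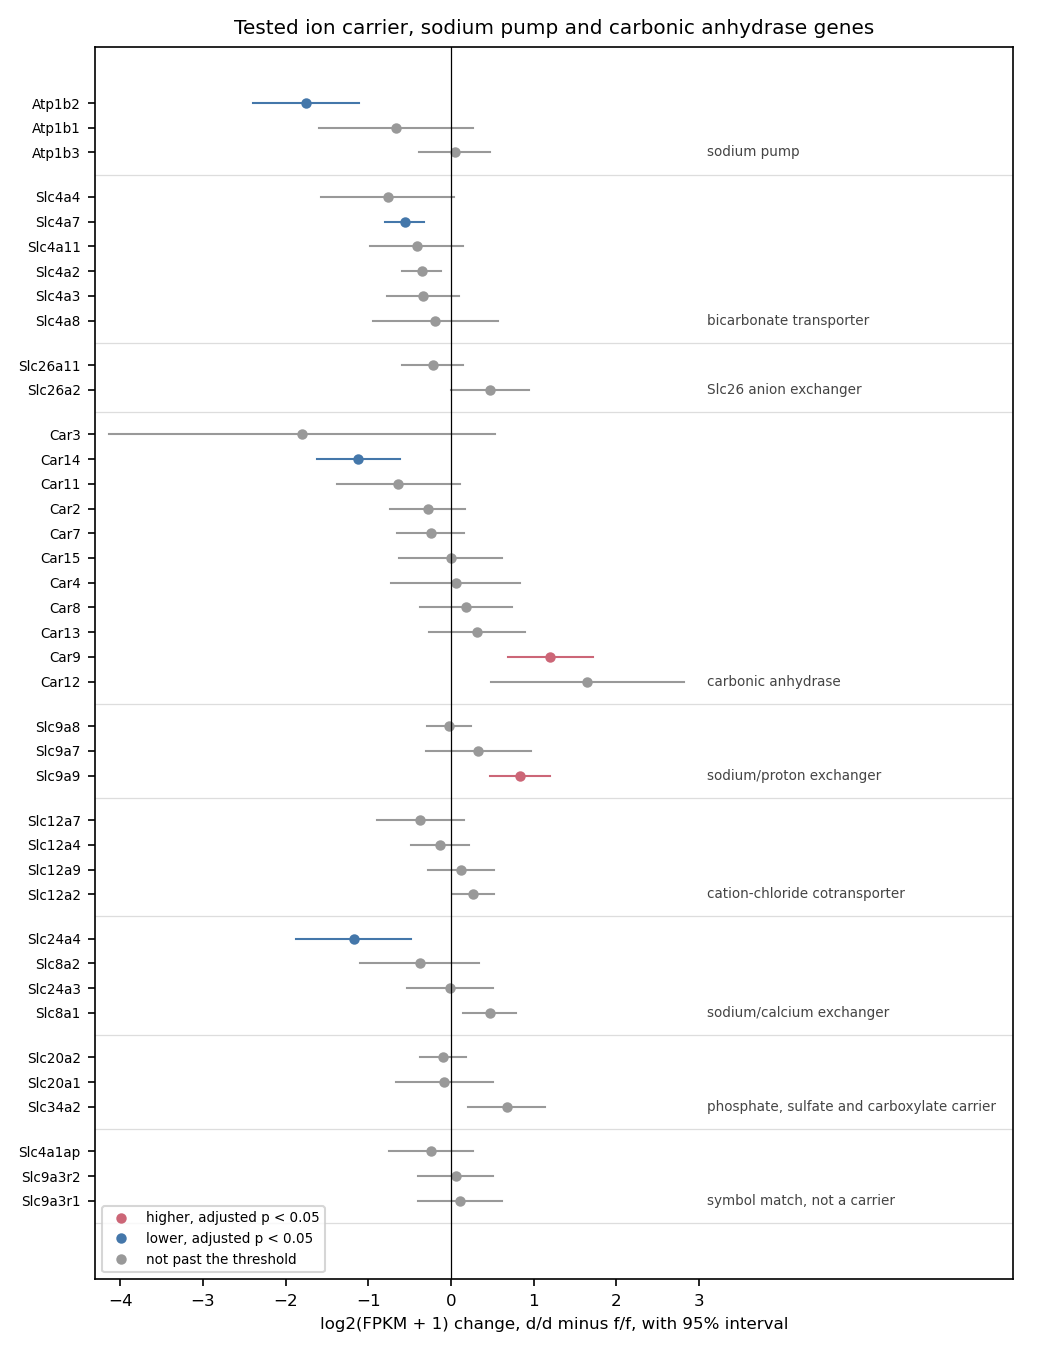
Each point is the log2(FPKM + 1) change from f/f to d/d of 1 gene, for 39 of the 44 tested genes, grouped by class, with its 95% interval from limma (3 libraries per group). The 4 blue points passed the threshold on the lower side and the 2 red points on the higher side; Car3 and Car12 have the widest intervals.

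Among the sodium pump beta subunits Atp1b2 fell, while Atp1b1 and Atp1b3 did not pass. Atp1b2 (ENSMUSG00000041329; chromosome 11, 69599736 to 69605942, minus strand of GRCm38) is a beta isoform known from glia. It was at 43.0, 50.6 and 44.6 FPKM across the f/f libraries against 20.4, 11.8 and 8.95 across the d/d libraries. The groups were far apart, with d/d replicate 1 the closest to f/f. The level went from 46.1 ± 4.02 to 13.7 ± 5.97 FPKM, 3.36-fold lower (log2 change -1.75, SE 0.27, limma adjusted p = 0.0138), a call lost when f/f 2 (0.0585) or d/d 2 (0.0526) was left out (limma adjusted p in parentheses here and below, with f/f 2 standing for f/f replicate 2). Smooth muscle markers summed to 1516, 3739 and 3746 FPKM for f/f and 3438, 2096 and 2782 for d/d, with Acta2 the largest part in every library. Of 5 such markers 0 rose and 1 fell, the intermediate filament gene Des, at 178, 314 and 364 FPKM across the f/f libraries against 139.8, 86.3 and 106 across the d/d libraries, and its part in the change of Atp1b2 was not tested. The nerve and glia list summed to 4.14 to 6.36 FPKM over the f/f libraries against 3.87 to 4.92 over the d/d libraries.

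The more abundant beta genes did not pass. Atp1b1, the widespread beta subunit, was at 78.9, 185 and 199 FPKM across the f/f libraries against 103, 62.2 and 112 across the d/d libraries. The f/f replicate 1 value lay inside the d/d range and far below the other f/f libraries. Exons of Atp1b1 share 575 bases with Nme7 on the opposite strand. Since the strand setting of the counting is not given, reads of overlapping genes cannot be told apart. The change was not called with all libraries (log2 change -0.67 with a 95% interval of -1.60 to 0.26, limma adjusted p = 0.303), and without f/f replicate 1 it was (log2 change -1.09, limma adjusted p = 0.0490). Atp1b3 was at 173 ± 38.2 FPKM for f/f against 177 ± 18.2 for d/d (log2 change 0.05 with a 95% interval of -0.38 to 0.48, limma adjusted p = 0.889), and its direction turned when f/f 1 or d/d 3 was left out. Atp1a4, known from sperm, was above 0 in 2 libraries only, and Atp1b4 was listed at 0 in all 6.

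Added up, the beta subunits came to an FPKM sum of 255.7, 411.2 and 453.4 across f/f against 295.8, 234.9 and 317.1 across d/d. These sums overlapped between the groups. The share of Atp1b2 in the beta sum was 16.8, 12.3 and 9.83% across f/f against 6.90, 5.02 and 2.82% across d/d.

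**Figure D2:**
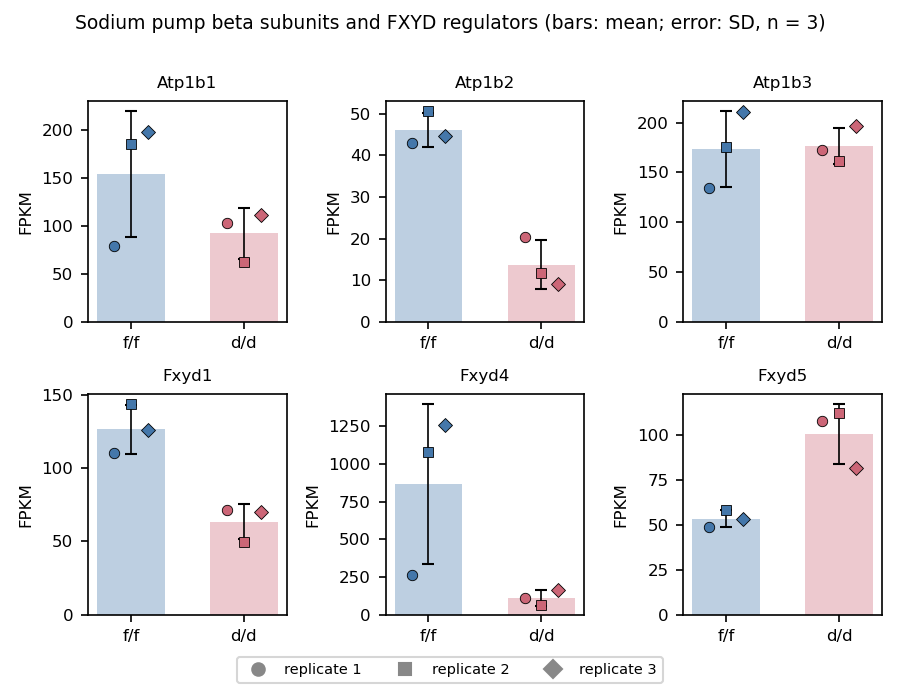
FPKM of 3 sodium pump beta subunits and 3 FXYD regulators; points are libraries, with the shape giving the replicate number, bars are group means and error bars SD (n = 3). Atp1b2, Fxyd1 and Fxyd4 have every d/d point below every f/f point, Fxyd5 has every d/d point above, and Atp1b1 and Fxyd4 show f/f replicate 1 far below the other f/f libraries.

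FXYD proteins are small membrane proteins that bind the sodium pump and tune its kinetics. Fxyd1 to Fxyd7 were all tested, and 3 of them passed the threshold. The FXYD genes belong to a wider list of partners and regulators, of which 14.8% passed, against 11.0% of all features. Fxyd4, known from kidney and colon, was at 266, 1076 and 1258 FPKM across the f/f libraries against 111, 62.9 and 167 across the d/d libraries. All d/d values were below all f/f values, and f/f replicate 1 lay well under the other f/f libraries. It fell 7.61-fold (log2 change -2.74, SE 0.63, limma adjusted p = 0.0413), a call lost when f/f 2 (0.132), f/f 3 (0.114), d/d 1 (0.0951), d/d 2 (0.114) or d/d 3 (0.0758) was left out, with no filter on low values (0.0824) and with no variance trend (0.0501). Fxyd1, phospholemman, known from muscle, fell 1.99-fold, from 126 ± 16.6 to 63.6 ± 12.1 FPKM (log2 change -0.99, SE 0.17, limma adjusted p = 0.0185), a call lost when f/f 2 (0.0741), f/f 3 (0.0648) or d/d 3 (0.0502) was left out. Fxyd5, also called dysadherin, moved the other way. It rose 1.89-fold, from 53.4 ± 4.73 to 101 ± 16.6 FPKM (log2 change 0.89, SE 0.15, limma adjusted p = 0.0157), a call lost when f/f 2 (0.0561), f/f 3 (0.0595), d/d 1 (0.0514) or d/d 2 (0.0547) was left out, and without both replicate 1 libraries (0.0606). Of the other FXYD genes none was called.

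The tested genes of the Slc4 bicarbonate transporter family included 1 that passed, Slc4a7. The log2 change was negative in 6 of 6, with a median of -0.39, and in 51.2% of all features. These 6 include Slc4a11, a proton or hydroxide transporter of the family. Slc4a7 (ENSMUSG00000021733; chromosome 14, 14702279 to 14799940, plus strand), the electroneutral sodium bicarbonate cotransporter NBCn1, was at 17.6, 18.4 and 18.5 FPKM across the f/f libraries against 12.6, 12.2 and 11.3 across the d/d libraries. Spread within each group was small and the groups were separate. It fell 1.51-fold, from 18.2 ± 0.517 to 12.02 ± 0.672 FPKM (log2 change -0.56, SE 0.10, limma adjusted p = 0.0194). Leaving out f/f 2 (0.0879), f/f 3 (0.0757), d/d 2 (0.0597) or d/d 3 (0.0607) ended the call.

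Slc4a2, the chloride/bicarbonate exchanger AE2 of many epithelia, was the most abundant of the family. It was at 34.7, 40.4 and 35.5 FPKM across the f/f libraries against 28.1, 29.1 and 28.5 across the d/d libraries, with separate groups, and did not reach the threshold (log2 change -0.35 with a 95% interval of -0.59 to -0.12, limma adjusted p = 0.0643). Its exons share 1141 bases with Fastk on the opposite strand, at 42.9 FPKM for f/f against 40.2 for d/d. Slc4a4, the electrogenic cotransporter NBCe1 that loads bicarbonate into secretory epithelia, was at 29.7, 10.7 and 14.8 FPKM across the f/f libraries against 9.49, 8.35 and 10.8 across the d/d libraries. All f/f libraries but replicate 2 were above every d/d library, and f/f replicate 1 was the highest by far (log2 change -0.77 with a 95% interval of -1.57 to 0.03, limma adjusted p = 0.185; log2 change -0.37 without f/f replicate 1). The multiciliated markers were highest in the same library, with sums of 234, 116 and 72.1 FPKM over f/f against 25.1, 123 and 78.9 over d/d. Within d/d, Slc4a4 was lowest in replicate 2, where that sum was highest. The part of these markers in the Slc4a4 level was not tested.

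Slc4a3, the exchanger AE3, was at 12.03 ± 1.96 FPKM for f/f against 9.34 ± 1.82 for d/d, with overlapping groups (limma adjusted p = 0.269). Slc4a8, a sodium-driven chloride/bicarbonate exchanger, was at 13.3, 6.45 and 5.62 for f/f against 5.15, 8.44 and 7.20 for d/d, again with f/f replicate 1 on top, and Slc4a11 at 2.56, 2.62 and 1.73 for f/f against 1.44, 2.03 and 0.998 for d/d. The 5 sodium-coupled bicarbonate transporters added up to 60.97, 35.7 and 38.9 across f/f against 27.4, 29.2 and 29.4 across d/d in FPKM, with separate groups, and the 3 exchangers AE1 to AE3 to 44.6, 53.7 and 48.5 across f/f against 38.98, 39.04 and 35.9 across d/d, also separate. Slc4a1, the red cell exchanger AE1, stayed at or under 0.154 FPKM, and the red cell list summed to 74.6 to 111 FPKM over the f/f libraries against 41.1 to 85.3 over the d/d libraries. Slc4a5, Slc4a9 and Slc4a10 were below the filter as well.

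Slc26 anion exchangers were scarce, and only 2 of 11 reached the filter. Slc26a2, a sulfate transporter, was at 3.92, 3.70 and 4.31 FPKM across the f/f libraries against 4.96, 8.06 and 5.10 across the d/d libraries. The groups were separate and d/d replicate 2 was the highest, but the gene did not pass (log2 change 0.47 with a 95% interval of 0.00 to 0.95, limma adjusted p = 0.167). Slc26a11 was at 4.42 ± 0.681 FPKM for f/f against 3.63 ± 0.187 for d/d (limma adjusted p = 0.382). Among the exchangers that carry bicarbonate in other epithelia, Slc26a3 did not exceed 0.0739 FPKM, pendrin (Slc26a4) ranged from 0.189 to 2.68, and Slc26a6 was listed at 0 in all 6 libraries. An exact 0 in such a table can be a failed estimate, so Slc26a6 is not described as silent.

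Carbonic anhydrases that face the extracellular side differed gene by gene. In the libraries labelled d/d Car9 rose, Car14 fell, and Car12 was higher in 2 of 3 d/d libraries without passing the test. All 3 are single-pass membrane enzymes with the catalytic domain outside the cell. Short stretches upstream of the RefSeq starts (GRCm38.p6) of the members past the threshold were searched for ACGTG, the core that hypoxia-inducible factors bind, since Car9 is a textbook hypoxia-induced gene, and for the palindrome GNACA, any 3 bases, TGTNC, of the kind that progesterone and glucocorticoid receptors bind. The stretches below show every match, read 5′ to 3′ on the strand of the gene, with the motif in capitals (ACGTG reads CACGT where it lies on the other strand).
Car9, chr4:43506995-43507024, plus strand: cctatttccgatgCACGTacagcccgtcca
Car14, chr3:95904686-95904715, minus strand: agcccaggcaccacccccctcctCACGTac
Slc24a4, chr12:102128622-102128651, plus strand: aggggaggtgtacACGTGcaggggaggggg
Car14, chr3:95904890-95904919, minus strand: ggggaatgaGAACACGGTGTCCtgggaggg

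In Car9 the match lay 18 to 14 bases before the RefSeq start, inside the first exon of the GENCODE model, which begins farther upstream. In Car14 ACGTG lay 7 to 3 bases and the palindrome 225 to 213 bases before the start. That ACGTG overlaps the first bases of the GENCODE model of Car14, which begins at 95904691 on the minus strand. ACGTG was found on either strand within 250 bases before the start in 16.6% of 32851 promoters. Among members it was found in 13 of 78 promoters, from 13 of 60 genes. Of the 5 threshold-passing members that the table holds, 3 had it: Car9, which rose, and Car14 and Slc24a4, which fell. In Slc24a4 the match is part of CACGTG, which reads the same on both strands. The palindrome was found in 0.387% of all promoters and, of 60 member genes in the table, in Car14 alone. Slc4a7 and Slc9a9 held neither; Atp1b2 is not in the table. A match is a run of letters and not a measured binding site.

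Car9 (ENSMUSG00000028463; chromosome 4, 43506966 to 43513729, plus strand) was at 1.98, 1.91 and 2.34 FPKM across the f/f libraries against 4.74, 8.41 and 5.53 across the d/d libraries. Every d/d library was above every f/f library, and d/d replicate 2 was the highest. It rose 2.999-fold, from 2.08 ± 0.228 to 6.23 ± 1.94 FPKM (log2 change 1.20, SE 0.22, limma adjusted p = 0.0206), a call that ended when f/f 2 (0.0826), f/f 3 (0.0611) or d/d 3 (0.0599) was left out, or with no filter on low values (0.0516). Exons of Car9 share 214 bases with Gm12454 on the opposite strand, at 4.05 FPKM for f/f against 6.83 for d/d.

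Car14 (ENSMUSG00000038526; chromosome 3, 95897768 to 95904691, minus strand) was at 4.16, 2.52 and 3.37 FPKM across the f/f libraries against 0.894, 1.09 and 0.955 across the d/d libraries. The 3 d/d libraries lay close together, all under the lowest f/f library. It fell 3.42-fold, from 3.35 ± 0.820 to 0.980 ± 0.102 FPKM (log2 change -1.12, SE 0.21, limma adjusted p = 0.0227). Leaving out f/f 2 (0.0561), f/f 3 (0.0824), d/d 1 (0.0620), d/d 2 (0.0628) or d/d 3 (0.0668), or both replicate 1 libraries (0.0736), ended the call. Its exons share 445 bases with Aph1a on the opposite strand, which was at 13.2 FPKM for f/f against 13.97 for d/d.

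Car12 had the largest positive log2 change of the tested members and a wide spread. It was at 5.05, 1.99 and 1.73 FPKM across the f/f libraries against 4.82, 17.1 and 13.6 across the d/d libraries. In d/d replicates 2 and 3 it was far above all f/f libraries, while d/d replicate 1 lay just under f/f replicate 1. The 4.04-fold difference of the means did not pass (log2 change 1.65 with a 95% interval of 0.49 to 2.81, limma adjusted p = 0.0768), and it did without d/d replicate 1 or without both replicate 1 libraries. Car4 and Car15, enzymes anchored to the outer face of the membrane, were at 1.02 ± 0.657 FPKM for f/f against 1.04 ± 0.335 for d/d and at 2.42 ± 0.570 FPKM for f/f against 2.46 ± 0.886 for d/d. Together the 5 outward-facing enzymes came to an FPKM sum of 15.4, 10.4 and 9.50 across f/f against 14.7, 28.7 and 24.2 across d/d, so d/d replicate 1 stayed within the f/f range and the other d/d libraries did not. Car14 made up 26.9, 24.1 and 35.5% across f/f against 6.08, 3.80 and 3.95% across d/d of that sum, and Car12 32.7, 19.1 and 18.2% across f/f against 32.8, 59.6 and 56.1% across d/d.

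**Figure D3:**
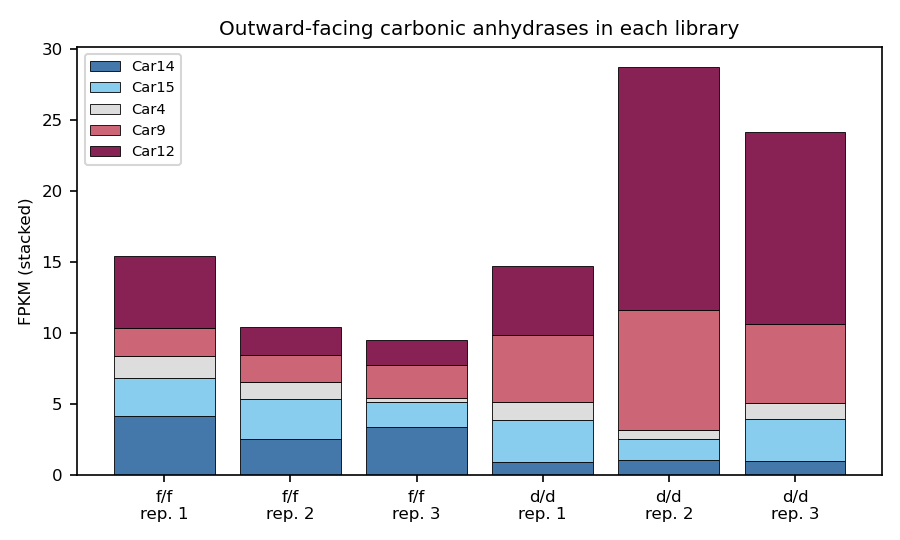
Stacked FPKM of the 5 outward-facing carbonic anhydrases in each of the 6 libraries. The Car14 segment is smaller and the Car9 segment larger in every d/d library than in any f/f library, and the Car12 segment is largest in d/d replicates 2 and 3.

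Of the cytosolic enzymes, Car2, the fast and widespread isoform, was the most abundant carbonic anhydrase, at 63.7, 74.4 and 72.2 FPKM across the f/f libraries against 60.1, 43.2 and 72.9 across the d/d libraries. The groups overlapped and the gene was not called (log2 change -0.28 with a 95% interval of -0.74 to 0.18, limma adjusted p = 0.373). Car13 was at 4.60 ± 1.45 FPKM for f/f against 5.97 ± 1.66 for d/d and Car7 at 4.82 ± 0.171 FPKM for f/f against 3.96 ± 0.839 for d/d, with limma adjusted p of 0.427 and 0.378. Car11 and Car8, relatives that lack catalytic activity, were at 18.8, 10.7 and 9.35 for f/f against 11.4, 5.80 and 6.65 for d/d and at 1.12, 1.70 and 1.78 for f/f against 2.56, 1.57 and 1.55 for d/d; neither was called (limma adjusted p = 0.232 and 0.645).

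Car3, an abundant enzyme of fat and slow muscle, had the widest interval of the tested members, at 27.99, 1.98 and 4.08 FPKM across the f/f libraries against 0.205, 5.54 and 0.325 across the d/d libraries. The high value was that of f/f replicate 1, and the groups overlapped (log2 change -1.80 with a 95% interval of -4.13 to 0.54, limma adjusted p = 0.271). The 6 adipocyte markers (Adipoq, Plin1, Lep, Cfd, Fabp4 and Cidec) summed to 64.5, 2.40 and 12.7 FPKM for f/f and 0.292, 8.62 and 1.26 for d/d. Both were highest in f/f replicate 1 and lowest in d/d replicate 1, and the part of fat tissue in the Car3 level was not tested. Adipoq, which defines fat cells, was at 5.86 FPKM in f/f replicate 1 and listed at 0 in d/d replicate 1. Car1, Car2, Car3 and Car13 lie side by side on chromosome 3, from 14641727 to 14900770, and their levels differed widely: Car1 was above 0 in f/f replicate 1 only.

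**Figure D4:**
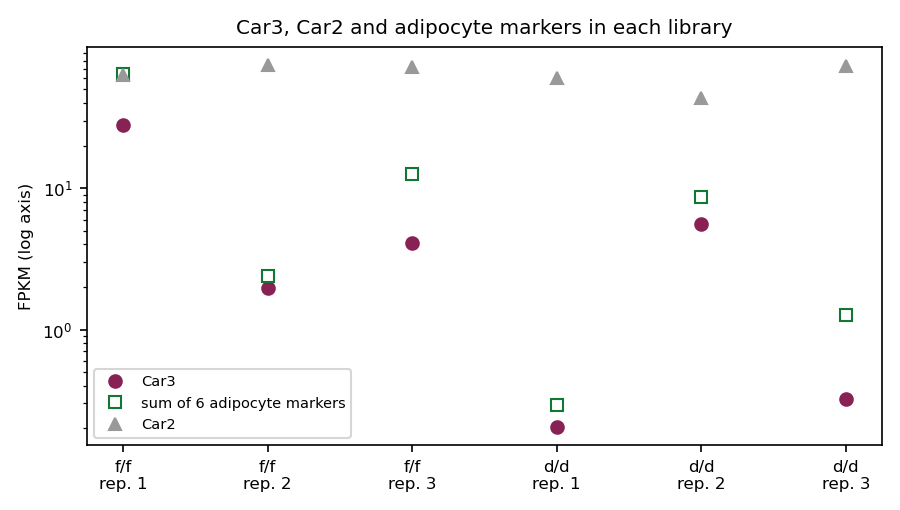
FPKM on a log axis of Car3, its chromosomal neighbour Car2 and the sum of 6 adipocyte markers in each library. Car3 and the adipocyte sum are both highest in f/f replicate 1 and lowest in d/d replicate 1, while Car2 stays between 43.2 and 74.4.

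Of the sodium/proton exchangers, 1 of 5 tested passed. Slc9a9 (ENSMUSG00000031129; chromosome 9, 94669909 to 95230445, plus strand), an exchanger of endosomes, was at 3.56, 4.15 and 3.16 FPKM across the f/f libraries against 6.39, 8.10 and 7.24 across the d/d libraries. The groups were separate, with every d/d value above the highest f/f value. It rose 1.999-fold, from 3.62 ± 0.495 to 7.24 ± 0.852 FPKM (log2 change 0.83, SE 0.15, limma adjusted p = 0.0214), and leaving out f/f 2 (0.0602), f/f 3 (0.0757), d/d 2 (0.0732) or d/d 3 (0.0686) ended the call, as did testing with no filter on low values (0.0542). The 6 macrophage markers rose in the same libraries, with sums of 320.4 to 406 FPKM over the f/f libraries against 896 to 1189 over the d/d libraries, and their part in the Slc9a9 level was not tested.

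The Golgi exchanger Slc9a8 was at 15.98 ± 1.01 FPKM for f/f against 15.8 ± 1.42 for d/d (log2 change -0.02 with a 95% interval of -0.29 to 0.25, limma adjusted p = 0.928). Slc9a7 stood just above the filter at 0.855, 0.775 and 0.725 for f/f against 1.84, 1.36 and 0.676 for d/d. Slc9a3, the main absorptive exchanger of kidney and gut, was listed at 0 in all 6 libraries, and Slc9a2, Slc9a4 and Slc9a5 were below the filter. The scaffolds Slc9a3r1 and Slc9a3r2, which tether carriers to the actin cytoskeleton, were at 57.3 ± 16.6 FPKM for f/f against 60.99 ± 9.41 for d/d and at 40.1 ± 9.96 FPKM for f/f against 40.9 ± 3.13 for d/d, with limma adjusted p of 0.765 and 0.876. Slc4a1ap, the last tested symbol match, was at 13.7 ± 2.49 FPKM for f/f against 11.6 ± 3.24 for d/d (limma adjusted p = 0.499).

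Cation-chloride cotransporters set cell chloride and volume, and 0 of the 5 tested passed limma's threshold. An unadjusted limma p under 0.05 was found for 2 of the 5, and for 4562 of all 15438 features tested. Slc12a2, the inward sodium-potassium-chloride cotransporter NKCC1 that feeds chloride secretion, was at 39.8, 39.2 and 40.9 FPKM across the f/f libraries against 44.2, 54.4 and 47.2 across the d/d libraries. It was higher in every d/d library, by a small amount (log2 change 0.27 with a 95% interval of 0.02 to 0.52, limma adjusted p = 0.147). Slc12a4 (KCC1) and Slc12a7 (KCC4) were at 19.3 ± 3.55 FPKM for f/f against 17.4 ± 1.04 for d/d and at 25.99 ± 4.35 FPKM for f/f against 20.3 ± 6.37 for d/d, with limma adjusted p of 0.595 and 0.317. Slc12a9 was at 6.58 ± 0.591 FPKM for f/f against 7.30 ± 1.44 for d/d. The renal members Slc12a1 and Slc12a3 stayed at or under 0.215 FPKM, and Slc12a5 and Slc12a8 were below the filter.

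Of the sodium/calcium exchangers, 1 of 4 tested passed, and it fell. Slc24a4 (ENSMUSG00000041771; chromosome 12, 102128733 to 102267091, plus strand), a potassium-dependent exchanger, was at 3.71, 5.40 and 3.58 FPKM across the f/f libraries against 0.551, 2.001 and 1.57 across the d/d libraries. The d/d values were all below the f/f values, with d/d replicate 1 the lowest. It fell 3.08-fold, from 4.23 ± 1.02 to 1.37 ± 0.745 FPKM (log2 change -1.18, SE 0.29, limma adjusted p = 0.0498), and sits at the edge of the threshold. The call was lost whichever library was left out (limma adjusted p from 0.0689 to 0.162) and without both replicate 1 libraries (0.0755). It was also lost with a pseudocount of 0.1 (0.0651), with trimmed mean of M values scaling (0.0505) and with no filter on low values (0.0991). Rescaling to protein-coding genes outside mitochondrial DNA ended it too (0.0522).

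Slc8a1, the exchanger NCX1 that clears calcium from muscle cells, was at 13.2, 13.6 and 15.2 FPKM across the f/f libraries against 20.3, 22.4 and 16.9 across the d/d libraries. It was higher in every d/d library and not called (log2 change 0.47 with a 95% interval of 0.15 to 0.79, limma adjusted p = 0.06999). Slc24a3, the most abundant of the group, was at 33.5 ± 9.68 FPKM for f/f against 32.4 ± 3.23 for d/d (log2 change -0.01 with a 95% interval of -0.53 to 0.50, limma adjusted p = 0.980). Slc8a2 was at 5.61 ± 2.09 FPKM for f/f against 4.002 ± 1.31 for d/d (limma adjusted p = 0.443). Slc8a3 stood just below the filter, at 0.840, 0.588 and 0.525 for f/f against 1.43, 1.35 and 0.999 for d/d, with separate groups.

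Phosphate carriers were present at moderate levels, and 0 of the 3 tested passed. An unadjusted limma p under 0.05 was found for 1 of the 3, and for 4562 of all 15438 features tested. Slc34a2, the epithelial sodium-phosphate cotransporter NaPi-IIb, was at 17.3, 10.3 and 11.8 FPKM across the f/f libraries against 21.7, 18.5 and 23.1 across the d/d libraries. The lowest d/d library was above the highest f/f library, which was replicate 1. The 1.61-fold difference was not called with all libraries (log2 change 0.68 with a 95% interval of 0.21 to 1.14, limma adjusted p = 0.0734) and was without f/f replicate 1 (limma adjusted p = 0.0170) or without both replicate 1 libraries (0.0374). The widespread carriers Slc20a1 and Slc20a2 were at 14.6 ± 4.58 FPKM for f/f against 13.4 ± 2.36 for d/d and at 19.4 ± 1.88 FPKM for f/f against 18.03 ± 1.55 for d/d, with limma adjusted p of 0.865 and 0.621. Slc34a1 and Slc34a3, the renal cotransporters, were above 0 in d/d replicate 2 only. The kidney list, which shares Slc34a1, held Lrp2, which fell, at 4.86, 39.6 and 42.6 for f/f against 0.747, 0.106 and 0.0893 for d/d, while Slc5a2 and Cubn did not exceed 0.340 FPKM.

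**Figure D5:**
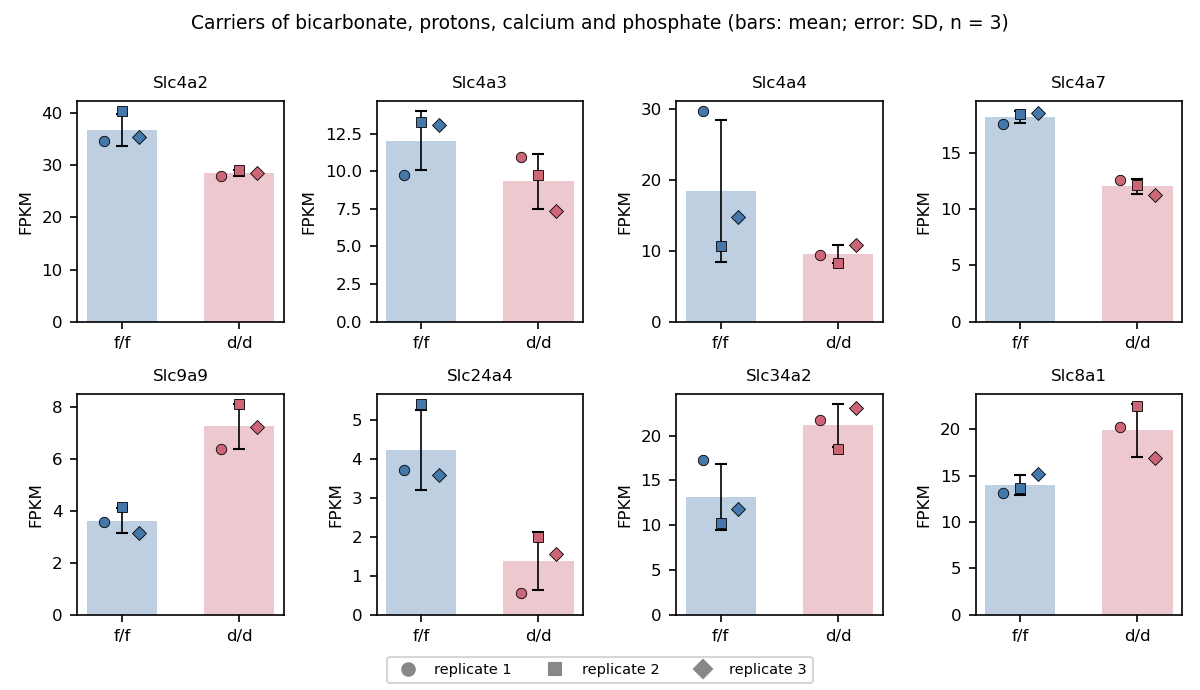
FPKM of 8 carriers; points are libraries, with the shape giving the replicate number, bars are group means and error bars SD (n = 3). Slc4a7, Slc9a9 and Slc24a4 passed the threshold; Slc4a2, Slc34a2 and Slc8a1 have separate groups without passing, and Slc4a4 has a single high value in f/f replicate 1.

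A total of 39 members had a mean under 1 FPKM and were not tested. Of these, 4 were listed at 0 in all 6 libraries (Slc26a6, Slc9a3, Slc24a1 and Atp1b4), 18 were listed at 0 in 1 to 5 libraries, and 17 were above 0 in all. At the filter, Slc8a3 (0.956), Slc13a2 (0.948) and Slc26a4 (0.942) stood just below it and Car4 (1.03), Slc9a7 (1.04) and Car8 (1.71) just above it, as mean FPKM. Slc13a5, the citrate carrier, had the lowest p of the low genes (limma adjusted p = 0.0761 with no filter), at 1.72, 1.05 and 1.30 FPKM across the f/f libraries against 0.639, 0.0806 and 0.228 across the d/d libraries. With no filter on low values, 0 of the 35 low members above 0 passed limma's threshold. An unadjusted limma p under 0.05 was found for 5 of them: Slc13a5, Slc24a2, Slc26a7, Slc26a10 and Slc8a3. The share of all features under 0.05 in that fit was not counted. Slc26a7 was at 0.684, 0.666 and 0.273 for f/f against 0.165, 0.147 and 0.134 for d/d. Slc26a10 was at 0.847, 0.761 and 0.405 for f/f against 0.0510, 0.272 and 0.297 for d/d. Exons of Slc26a10 share 715 bases with B4galnt1 on the opposite strand. B4galnt1 was far more abundant and higher in d/d, at 15.5 FPKM for f/f against 28.4 for d/d.

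Of 36 partners and regulators of these carriers 27 were tested, of which 1 rose (Fxyd5) and 3 fell (Fxyd1, Fxyd4 and Car5b). That is 14.8% past the threshold, against 11.0% of all features, and 11.1% lower, against 4.97%, with a median log2 change of -0.11. Car5b, a mitochondrial carbonic anhydrase, was at 8.39, 13.4 and 11.9 FPKM across the f/f libraries against 5.08, 3.31 and 5.16 across the d/d libraries. It fell 2.49-fold (log2 change -1.15, SE 0.22, limma adjusted p = 0.0243), a call lost when f/f 2 (0.0955), f/f 3 (0.0853), d/d 1 (0.0528), d/d 2 (0.0676) or d/d 3 (0.0599) was left out, and with no filter on low values (0.0550). The most abundant list genes that were not called were Ezr, encoding ezrin, which links membrane proteins to actin, at 101 ± 27.8 FPKM for f/f against 123 ± 18.8 for d/d, and Fxyd3, at 88.02 ± 26.97 FPKM for f/f against 122 ± 34.2 for d/d, with limma adjusted p of 0.364 and 0.3005. Cftr, the chloride and bicarbonate channel that works with these exchangers, was at 21.9, 7.61 and 8.37 for f/f against 12.03, 16.7 and 16.4 for d/d (limma adjusted p = 0.544), and Adcy10, the bicarbonate-sensing adenylyl cyclase, was below the filter at 0.253, 0.534 and 0.347 for f/f against 0, 0.0683 and 0.0123 for d/d. Counting every gene of the list, also those not called with all libraries, 6 passed without f/f 1, 0 without f/f 2 or f/f 3, and 1 without any 1 of the d/d libraries.

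The vacuolar proton pump, which acidifies endosomes and in some epithelia secretes acid, had 19 of 24 genes tested, of which 1 rose and 2 fell (15.8% past the threshold, against 11.0% of all features), with a median log2 change of 0.06. Atp6v1c2, an isoform of the C subunit found in epithelia, was at 21.5, 8.40 and 10.8 FPKM across the f/f libraries against 4.18, 2.94 and 2.997 across the d/d libraries, 4.03-fold lower in d/d (log2 change -1.65, SE 0.32, limma adjusted p = 0.0262). The call was lost when f/f 3 (0.0710), d/d 1 (0.0536), d/d 2 (0.0846) or d/d 3 (0.0840) was left out, and with no filter on low values (0.0589). The f/f replicate 1 value stood above the other f/f values, and all d/d values were below the lowest f/f value. The multiciliated markers were highest in f/f replicate 1 too, with sums of 234, 116 and 72.1 FPKM over f/f against 25.1, 123 and 78.9 over d/d. Within d/d, Atp6v1c2 was highest in replicate 1, where that sum was lowest. The part of these markers in the Atp6v1c2 level was not tested. Atp6v0e2 fell 2.05-fold, from 52.2 ± 11.7 to 25.4 ± 2.49 FPKM (log2 change -0.99, SE 0.17, limma adjusted p = 0.0178), a call lost when f/f 3 (0.0587), d/d 1 (0.0529) or d/d 3 (0.0636) was left out. The most abundant subunit genes, Atp6v0e and Atp6v0b, were at 153 ± 12.1 FPKM for f/f against 172 ± 30.6 for d/d and at 104 ± 10.8 FPKM for f/f against 114 ± 7.28 for d/d and were not called (limma adjusted p = 0.515 and 0.478). Atp6ap1, an accessory subunit, rose 1.35-fold, from 78.5 ± 3.69 to 106 ± 5.35 FPKM (log2 change 0.43, SE 0.09, limma adjusted p = 0.0336). That call was lost whichever library was left out (limma adjusted p from 0.0559 to 0.102), without both replicate 1 libraries (0.112) and with no variance trend (0.0536). Counting every gene of the list, also those not called with all libraries, 3 passed without f/f 1, 2 without f/f 2, 1 without d/d 2, and 0 without f/f 3, d/d 1 or d/d 3.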

How the data were processed

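The authors deposited 1 table per library, with 1 value per Ensembl gene, read here as FPKM. The unit is an inference from decimal values, unequal library totals and the mention of Cufflinks 2.2.1. The submitters' processing notes also list HISAT2 2.2.1 and the builds mm9 and mm10, without roles. Annotation, filters and strandedness of counting: not given in the sources used here. Per the labels' protocols, TRIzol RNA went into TruSeq libraries.

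Each table held 55483 features, and no library pair was identical (0 pairs). Rows sharing a symbol (114 symbols, no member) were summed. GENCODE M21 (GRCm38) held 55223 of the identifiers and gave coordinates. Depth was read from the lowest values of single-transcript genes. Features with a mean of at least 1 FPKM entered limma 3.58.1 (R 4.3.3) as log2(FPKM + 1) (variance trend, genotype as the only term, two-sided, Benjamini-Hochberg adjustment). Changes on that scale understate those of low genes, and folds are ratios of mean FPKM. With 3 against 3, an exact permutation test cannot go below 0.1, so none is given. The fit was tested on simulated data. The members and lists were chosen with earlier results of these data known. Genes named by rule are members past the threshold, members with a mean of at least 10 FPKM, those next to the filter, and from the lists every gene past the threshold and otherwise the 2 most abundant. Every other gene named was chosen after its values were seen. Some members, counted in the totals, are not reported by name here. Motifs were searched in RefSeq promoter sequences.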

Additional observations from a re-analysis of the deposited data

How the results depend on the processing

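Of the 8 members past the threshold, all 8 kept their direction under every alternative run. The d/d and f/f values of these 8 did not overlap, so only the runs that rescaled the values could have turned it. The number of members that passed was 7 with a pseudocount of 0.1, 8 with quantile normalization, 7 with trimmed mean of M values scaling, 8 without a variance trend, 7 rescaled to protein-coding genes outside mitochondrial DNA (chosen after seeing the data) and 5 with no filter on low values, where more features are tested and Car9, Slc9a9 and Slc24a4 no longer passed. It ranged from 0 to 9 when 1 library was left out, fits with fewer samples. Partners and regulators passing numbered 4, 2 with no filter, and 0 to 6 with 1 library left out; the proton pump list numbered 3, and 0 to 3. The replicate numbers of the labels were also used as a block: 0 members, 0 partners and 1 proton pump gene passed. In this balanced design a block leaves the log2 changes themselves as they were. Same-numbered libraries did not deviate together (correlations of their deviations from the group means -0.22, -0.0585 and 0.0027 for numbers 1 to 3), so the numbers were not taken as pairs. Members rising numbered 4 in place of 2 without both replicate 1 libraries. Directions turned only in genes that were not called. With 1 library left out, log2 changes ranged from -0.15 to 0.21 for Slc9a3r2 (-0.14 without both replicate 1 libraries), from -0.018 to 0.34 for Slc9a3r1, from -0.35 to 0.090 for Slc20a1 (0.17 without both), from -0.13 to 0.20 for Atp1b3 (-0.11 without both), from -0.079 to 0.043 for Slc9a8 (0.085 without both) and from -0.25 to 0.18 for Slc24a3. Slc20a2 turned to 0.042 without both replicate 1 libraries. Scaling moved the median of all features by under 0.1. Depth limits the members below 1 FPKM, which rest on few fragments.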
